A study of Mus musculus with 12 samples.

Results

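The 12 RNA libraries of a study of mouse primary myotubes were arranged as 4 cells of 3, by genotype label and by a split of the title numbers, and every gene was tested for an interaction between the 2. Myotubes are the multinucleated muscle cells that cultured myoblasts form on fusion. The myoblasts of both groups were taken from Bmal1-floxed animals, so the cells called wildtype carried the floxed allele too, and cells of both groups received an adenovirus for 48 hours, either empty or expressing the Cre recombinase that excises the floxed part. The sample labels give 6 libraries as wildtype at 21% oxygen and 6 as Bmal1 knockout at 1% oxygen for 6 hours, whereas the design text describes 4 combinations of virus and oxygen. Genotype, virus and oxygen therefore cannot be told apart in the labels.

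The libraries with title numbers 1 to 6 are called the first set here and those with numbers 7 to 12 the second set. Wildtype replicates 1 to 3 and knockout replicates 1 to 3 belong to the first set, and replicates 4 to 6 of both labels to the second. No label names these sets. They were chosen by the measured levels of genes that low oxygen induces, seen earlier in the same table, so the difference between the sets is given below as a description, with no test, and no oxygen level is assigned to a set. The tested quantity is the second-minus-first difference in the knockout label minus the same difference in the wildtype label, on log2(normalized count + 1). A positive interaction means that the second set stood higher, relative to the first, in the knockout label than in the wildtype label. All 12 libraries of the series entered, and 12553 of the 20201 genes in the table had the mean of 10 normalized counts or more that testing required. Since no culture, animal or batch is labelled, p-values reflect spread among libraries only, and that spread may be technical.

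BMAL1, whose gene is listed under the symbol Arntl, pairs with CLOCK and activates genes through E-box sequences, among them the Period, Cryptochrome and REV-ERB genes that feed back on the pair. The hypoxia-inducible factors HIF-1 and HIF-2 belong to the same family of bHLH-PAS proteins and bind a related core sequence. When oxygen is scarce the prolyl hydroxylases that mark the HIF alpha subunits for breakdown are slowed, and genes of glucose uptake, glycolysis and vessel growth are switched on. In muscle both systems act on glucose handling and glycogen.

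The promoters of 3 genes that the results below return to are shown from 250 bases before to 50 bases after the start site, read from RefSeq sequence of GRCm38.p6. Ppp1r3c and Hspa1a passed the test once wildtype replicate 2 was left out, and Egln3 is a HIF target whose difference between the sets was nearly equal in both labels. They lie at chr19:36736555-36736854, chr17:34972107-34972406 and chr12:54203825-54204124, all on the minus strand. Capitals mark each match to the HIF core ACGTG on either strand, to the E-box CACGTG, which contains that core, and to GAANNTTC, a pair of inverted heat shock repeats.
Ppp1r3c: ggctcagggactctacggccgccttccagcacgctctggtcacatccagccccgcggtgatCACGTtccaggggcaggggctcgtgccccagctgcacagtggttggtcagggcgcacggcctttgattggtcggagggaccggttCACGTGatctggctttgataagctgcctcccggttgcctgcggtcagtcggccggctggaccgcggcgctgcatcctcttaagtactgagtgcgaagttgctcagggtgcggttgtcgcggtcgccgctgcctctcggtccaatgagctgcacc
Hspa1a: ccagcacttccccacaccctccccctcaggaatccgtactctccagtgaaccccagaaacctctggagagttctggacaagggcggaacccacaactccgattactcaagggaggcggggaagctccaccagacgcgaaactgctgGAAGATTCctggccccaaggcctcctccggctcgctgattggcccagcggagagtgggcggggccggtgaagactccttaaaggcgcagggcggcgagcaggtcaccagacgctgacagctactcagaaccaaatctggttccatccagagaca
Egln3: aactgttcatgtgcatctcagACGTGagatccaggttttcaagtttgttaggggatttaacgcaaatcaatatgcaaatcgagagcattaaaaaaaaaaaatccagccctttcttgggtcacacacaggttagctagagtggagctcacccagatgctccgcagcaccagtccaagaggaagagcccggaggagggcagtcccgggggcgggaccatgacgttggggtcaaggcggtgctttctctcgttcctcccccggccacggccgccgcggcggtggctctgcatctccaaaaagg
The Ppp1r3c promoter held 3 matches to the HIF core, beginning at positions -189, -104 and -103 from the start site, of which the last pair are the opposite strands of 1 E-box. The Hspa1a promoter held 1 match to GAANNTTC, at -104, and the Egln3 promoter 1 match to the HIF core, at -229. Of 32851 mouse promoters of this length, 19.62% held the HIF core, 7.15% the E-box and 7.86% GAANNTTC, so these matches are descriptions of the sequence only.

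Depth was 6376584 to 12463339 recovered reads per library, and 8 very abundant, mostly non-coding genes took 49.2% to 65.4% of them. That share moved with the cells: it was 61.4% to 64.0% and 49.2% to 52.6% in the first and second set of the wildtype label, and 52.2% to 61.5% and 55.7% to 65.4% in the knockout label. The non-coding gene Gm42418 alone took 39.9% to 43.7% and 3.19% to 12.1% in the wildtype label, and 1.33% to 34.8% and 2.03% to 2.75% in the knockout label. Another of the 8, without a name in the annotation used here, reached 42.3% of a library. The total need not follow Gm42418. Knockout replicates 1 to 3 held 20.1%, 1.33% and 34.8% of Gm42418, while the 8 genes together took 52.2%, 55.5% and 61.5%. With the 8 genes left out before scaling, the interaction again called 1 gene, mt-Co2, and the part of these shares in single genes was not tested. Wildtype replicate 2, of the first set, stood apart: 29.6% of its genes were at 0 against 13.0% to 21.9% in the other libraries, and its median absolute deviation from its cell mean was 0.23 on the log2 scale against 0.09 to 0.15. Of 75 named genes compared with and without it, 14 had an interaction that moved by more than 0.1 and either changed sign or moved by more than 1.5 times, and those values are given both ways. The myotube markers Myh3 (2925 to 3858 normalized counts), Des and Acta1 were abundant in all 12 libraries. Summed, the 7 myotube markers stood at 12825 to 14089 and 13792 to 16906 in the first and second set of the wildtype label. In the knockout label the sums were higher, at 24770 to 26608 and 25889 to 27127. In the first set Acta1 had a mean of 3679 in the wildtype and 9100 in the knockout label, and Des 3634 and 7954. Over all 12 libraries Myh8 ranged from 1066 to 1682, Ckm from 406 to 1759, Tnnt3 from 748 to 2441 and Myog from 115 to 287. With the narrow ranges of Myh3 and Myh8, the higher sums do not describe all 7 markers alike. The fibroblast collagen gene Col1a1 was abundant in all libraries too, at 37198 to 64122. The pericyte marker Pdgfrb stood at 1827 to 3079 and the endothelial marker Cdh5 at 396 to 739. Together the 5 endothelial markers held 911 to 1062 and 972 to 1070 in the wildtype label. In the knockout label they held 1267 to 1279 and 1359 to 1533. The adipocyte marker Adipoq reached at most 0.934 and the macrophage marker Ptprc at most 1.95. Bulk RNA cannot tell fewer cells of a type from less RNA per cell. Arntl followed the genotype label, at 133, 156, 138, 179, 178 and 155 in wildtype replicates 1 to 6 and at 45.3, 42.3, 41.7, 42.9, 47.3 and 48.6 in knockout replicates 1 to 6.

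For 62.8% of the tested genes the 95% interval of the interaction lay within a 2-fold range around 0, and 1 gene passed the interaction test. That gene was mt-Co2, which encodes subunit 2 of cytochrome c oxidase on the mitochondrial genome. It makes up 0.00797% of the 12553 genes (limma with a trended prior, adjusted p = 0.0017, Benjamini-Hochberg over all tested genes). Without wildtype replicate 2 there were 3 called genes (0.0239%): mt-Co2 again, the HSP70 chaperone gene Hspa1a and the glycogen-targeting gene Ppp1r3c. With knockout replicate 4 left out as well, mt-Co2 was the only called gene, and the adjusted p of Hspa1a was 0.0702. Over 29 alternative settings mt-Co2 was called in 25, Hspa1a in 6 and Ppp1r3c in 4. At an unadjusted p below 0.05 stood 1070 genes (8.52%), of which 531 (4.23%) had a positive and 539 (4.29%) a negative interaction, and the median interaction over all tested genes was -0.01. The 2-label contrast without regard to set, by comparison, called 2416 genes (19.2%), 10.2% higher and 9.07% lower in the knockout label, and 3785 with the set as a block.

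The median standard error of an interaction was 0.26 on the log2 scale. The 95% interval lay wholly within -1 and 1, that is within a 2-fold difference of differences, for 7886 genes (62.8%), and for 7402 (80.4%) of the 9210 genes with a mean of 50 or more. Without wildtype replicate 2 these numbers were 8859 (70.6%) and 8152 (88.5%). The intervals of the other genes reach a 2-fold difference or more, and a missed threshold does not show that the labels acted alike. Count models on the recovered reads did not settle the number: edgeR's quasi-likelihood test called 0 genes (1108 at an unadjusted p below 0.05, smallest adjusted p = 0.191), whereas DESeq2 called 29 (0.245% of the 11814 genes it gave an adjusted p), 16 higher and 13 lower. Without wildtype replicate 2 edgeR called 3 and DESeq2 called 26, of which 18 were among the 29.

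**Figure D1:**
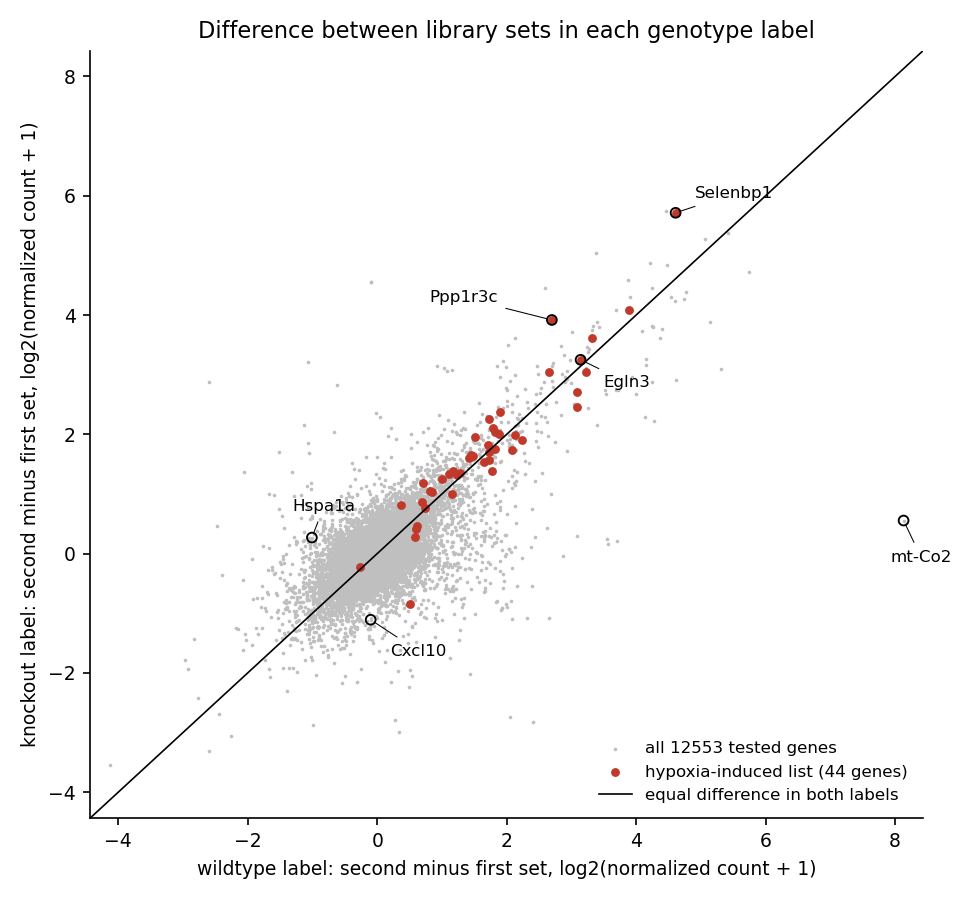
Second-minus-first difference of each of the 12553 tested genes in the wildtype label (x axis) and in the knockout label (y axis), both on log2(normalized count + 1). Red points are the 44 tested genes of the hypoxia-induced list and circled points are genes named in the text; a gene on the line has an interaction of 0, and mt-Co2 lies far to the right of it.

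Genes with a large difference between the sets had interactions on either side of 0. The average of the 2 label-wise differences, which come from the same libraries as the interaction, was 1 or more on the log2 scale for 560 genes. Their interactions had a median of 0.09 and an interquartile range of -0.35 to 0.39, with 314 positive and 246 negative, and 234 of the intervals (41.8%) lay within -1 and 1. At an unadjusted p below 0.05, 66 of them (11.8%) were higher and 19 (3.39%) lower, and without wildtype replicate 2 the numbers were 83 (14.8%) and 19, beside 4.27% higher and 4.23% lower among all tested genes in that fit. The 560 genes were chosen with wildtype replicate 2 included. How far that choice bears on these counts was not tested, so they are a description only. For the 186 genes that averaged 1 or more lower in the second set, the median was -0.07, with 4 higher and 5 lower at that p.

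mt-Co2 (chrM:7013-7696, plus strand) was listed at 0 in wildtype replicates 1, 2 and 3. In wildtype replicates 4 to 6 it stood at 379, 473 and 121 normalized counts. In the knockout label it stood at 409, 632 and 154 in the first set and at 671, 388 and 488 in the second. The 3 wildtype libraries of the first set thus lay apart from the other 9, which overlapped each other. The fitted interaction of -7.58 (95% interval -9.14 to -6.01) depends on the pseudocount added to the zeros and is no fold. It was -4.33 with a pseudocount of 10, where the gene was no longer called (adjusted p = 0.115), and edgeR gave an adjusted p of 0.191.

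The other genes of the mitochondrial genome were not called. mt-Co1, another subunit of the same enzyme, was at 43638, 38209 and 45315 in the 3 libraries where mt-Co2 was listed at 0, and its interaction was -0.30 (-0.58 to -0.01). mt-Cytb of complex III had an interaction of -0.08 (-0.41 to 0.24) and mt-Nd4 of complex I one of -0.06 (-0.38 to 0.25). mt-Co3, subunit 3 of the enzyme, varied within cells: it was at 511, 0 and 503 in wildtype replicates 1 to 3 and at 1981, 409.6 and 0.714 in wildtype replicates 4 to 6. In the knockout label it stood at 512, 2113 and 996 in the first set and at 2067, 1162 and 552 in the second, so its interval ran from -8.27 to 6.85 around -0.71, and from -3.53 to 8.10 around 2.28 without wildtype replicate 2. RSEM, which the authors used, shares reads that fit several genes by estimate, and whether that bears on the listed zeros was not tested.

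Hspa1a (chr17:34969190-34972156, minus strand) encodes an inducible HSP70 chaperone, and its level was highest in the wildtype libraries of the first set. They held 198, 139 and 196 normalized counts, whereas wildtype replicates 4 to 6 held 94.96, 92.7 and 74.2. Knockout libraries held 70.0, 73.4 and 66.6 in the first set and 85.8, 86.7 and 81.1 in the second. The second-minus-first difference was -1.01 in the wildtype and 0.27 in the knockout label. The interaction of 1.28 (0.79 to 1.76) missed the threshold with all 12 libraries (limma adjusted p = 0.214) and passed it without wildtype replicate 2 (1.44, 1.04 to 1.85, adjusted p = 0.0224). The near-identical copy Hspa1b, to which reads of Hspa1a could be assigned, stood at 449, 500.2 and 384 and at 264, 270.2 and 275 in the wildtype label, and at 245, 277 and 298 and at 216, 234 and 232 in the knockout label. Its interaction was 0.45 (0.12 to 0.78). With reads shared between the copies, the split of level between them is uncertain. The constitutive family member Hspa8, the most abundant gene of the heat shock list, had an interaction of 0.03 (-0.15 to 0.20).

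Ppp1r3c (chr19:36731731-36736653, minus strand) encodes a subunit that targets protein phosphatase 1 to glycogen. The gene is also on the hypoxia-induced list described below, and it was higher in the second set in both labels. Wildtype replicates 1 to 3 held 66.0, 20.1 and 51.4 normalized counts and wildtype replicates 4 to 6 held 313, 264 and 243. Knockout replicates held 12.4, 9.95 and 13.3 in the first set and 181, 190.4 and 206 in the second. The first of these cells lay low: 3 reads amounted to 2.47 to 3.73 normalized counts in its libraries. The 4 cells did not overlap, and the knockout libraries were lower in both sets, more so in the first (log2 difference between labels -1.72) than in the second (-0.50). The interaction was 1.22 (0.22 to 2.21, limma adjusted p = 0.553), and without wildtype replicate 2, the lowest of the wildtype libraries for this gene, it was 1.71 (1.21 to 2.22, adjusted p = 0.0281). Over the 29 alternative settings it ran from 0.77 to 1.79. Gys1, the muscle glycogen synthase and most abundant of the 17 tested glycogen genes, had an interaction of 0.11 (-0.18 to 0.41).

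**Figure D2:**
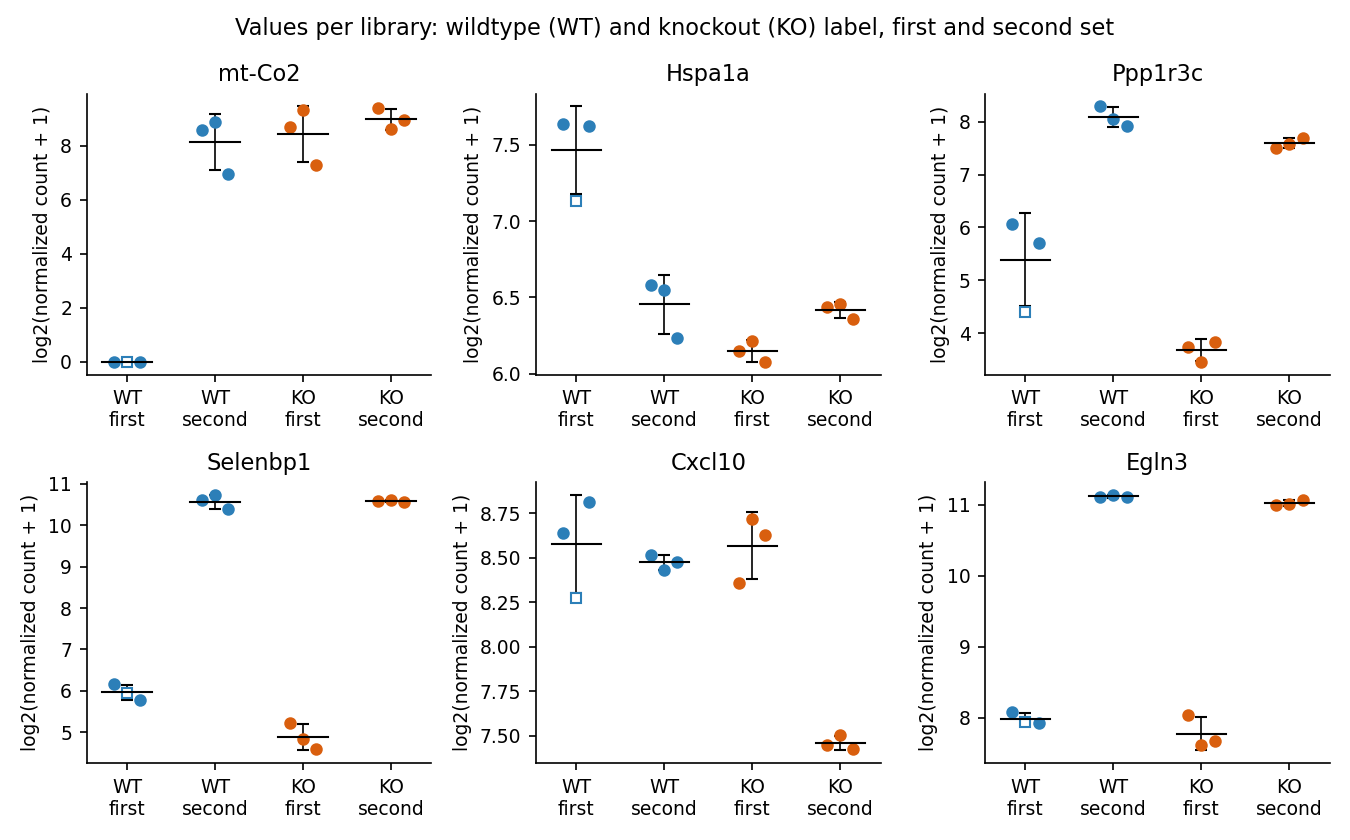
log2(normalized count + 1) of 6 genes in each library (points; 3 per cell), with the cell mean (line) and SD (bars), for the wildtype label (WT, blue) and the knockout label (KO, orange) in the first and the second set. The open square is wildtype replicate 2. mt-Co2 is listed at 0 in the 3 wildtype libraries of the first set, and Egln3 is shown as a gene whose set difference was nearly equal in both labels (3.14 and 3.25).

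The 24 genes with the smallest p in either direction, 12 each among genes that averaged at least 50 and carried a gene name rather than a clone name, were mt-Co2 and 23 that limma did not call (adjusted p 0.214 to 0.405). edgeR called 0 of the 24 and DESeq2 called 20, beside 0.245% of all genes to which DESeq2 gave an adjusted p. All 24 kept their sign without wildtype replicate 2, and 15 were again among the 24. The 24 were picked by their p in the same libraries that these fits use, which favours such counts. They are descriptions and no independent support. Of the 12 positive interactions, 8 belonged to genes whose second set was higher in both labels and more so in the knockout label, and 4 to genes whose differences had opposite signs. Of the 12 negative ones, 6 had opposite signs, 3 a smaller and 3 a larger difference in the knockout label.

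The clone-named gene 1190002N15Rik, which the naming rule left out and which was chosen after its values were seen, had a smaller p than the 23. It stood at 409, 452 and 401 and at 945, 948 and 911 in the wildtype label, and at 218, 228 and 248 and at 854, 796 and 858 in the knockout label. The 4 cells did not overlap, and the second set was higher by 1.15 in the wildtype and 1.85 in the knockout label. The interaction was 0.70 (0.47 to 0.93, limma adjusted p = 0.139), or 0.65 (adjusted p = 0.0584) without wildtype replicate 2. It was called in 5 of 29 alternatives, among them limma with library weights (adjusted p = 0.0361), DESeq2 with 12 libraries (adjusted p = 0.00012), and edgeR and DESeq2 without wildtype replicate 2 (adjusted p = 0.0485 and 0.000725).

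All 12 genes with a positive interaction had a lower mean in the knockout than in the wildtype label in the first set. In the second set the log2 difference between the labels ran from -0.75 to 1.01. The interaction is the label difference in the second set minus that in the first. Picking positive interactions therefore favours this first-set order, which is a description only. Selenbp1, a selenium-binding protein gene, stood at 70.4, 60.4 and 54.2 in wildtype replicates 1 to 3 and at 36.3, 27.4 and 23.1 in knockout replicates 1 to 3. In the second set it stood at 1552, 1688 and 1343 and at 1550.0, 1563 and 1518. The labels did not overlap in the first set and overlapped in the second, and the interaction was 1.10 (0.64 to 1.57, limma adjusted p = 0.244). Jun, a subunit of the AP-1 transcription factor, stood at 338, 336 and 319 against 208, 235 and 249 in the first set, and at 502, 489 and 537 against 528, 567 and 546 in the second. Its interaction was 0.62 (0.37 to 0.88, limma adjusted p = 0.229).

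Clcn3, an endosomal chloride-proton exchanger gene, stood at 156, 190.5 and 142 against 70.0, 79.6 and 63.0 in the first set, and at 336, 299 and 324 against 271, 304 and 274 in the second. Its interaction was 1.01 (0.62 to 1.40). Rnf217, a ubiquitin ligase gene, showed the same order with an interaction of 0.62. Bcar1, a focal adhesion docking protein gene (0.52), and Foxo3, a transcription factor gene of muscle atrophy and autophagy (0.43), were higher in the knockout label in the second set. Tiparp, a mono-ADP-ribosyltransferase gene (0.82), and Gpr146, an orphan receptor gene (0.83), were lower in the knockout label in both sets. For Tiparp the log2 difference between the labels was -1.56 in the first set and -0.75 in the second. None of these was called by limma or edgeR.

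In 4 genes with a positive interaction the sets differed in opposite directions: Hspa1a, Ptpn12, Crebrf and Kmt2a. Ptpn12, a tyrosine phosphatase gene, stood at 519, 542 and 411 and at 405, 371 and 403 in the wildtype label, and at 299, 302 and 296 and at 394, 395 and 381 in the knockout label (0.69, 0.39 to 0.99). Without wildtype replicate 3, its lowest first-set wildtype library, it was called (0.82, limma adjusted p = 0.0244). Crebrf, a regulator of the CREB3 factor, had an interaction of 1.39 and Kmt2a, a histone H3 lysine 4 methyltransferase gene, one of 1.13. Wildtype replicate 2 was the highest wildtype library of the first set for Ptpn12, Crebrf and Kmt2a, and without it their interactions were 0.62, 1.25 and 0.94.

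Among the negative interactions 4 of the 12 were interferon-induced genes, whose products act against viruses. Cxcl10, a chemokine gene, stood at 398, 308 and 449 and at 365, 345 and 355 in the wildtype label. In the knockout label it stood at 326, 421 and 394 in the first set and at 174, 180.3 and 171 in the second, so the knockout libraries of the second set lay below the other 9. Its interaction was -1.01 (-1.41 to -0.61, limma adjusted p = 0.214). Ifit2, which encodes an RNA-binding antiviral protein, stood at 1072, 993 and 1155 and at 1232, 1088 and 1148 in the wildtype label, and at 582, 636 and 583 and at 398, 362 and 473 in the knockout label (-0.66, -0.96 to -0.36). Ifit1 had an interaction of -0.51 (-0.76 to -0.25) and Oasl1, a gene related to the oligoadenylate synthetases, one of -0.54 (-0.81 to -0.27). In the 2-label contrast, which uses the same libraries, the log2 differences were -1.17 for Ifit2, -0.69 for Ifit1 and -1.15 for Oasl1 (limma adjusted p = 4.25e-05, 0.000981 and 4.24e-05). Cxcl10, with -0.51, did not pass that test (limma adjusted p = 0.149).

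Of the other negative genes, Gdf15, a stress-induced cytokine gene, stood at 147, 141 and 144 and at 161, 153 and 133 in the wildtype label. In the knockout label it stood at 159, 168 and 169 in the first set and at 109, 86.7 and 93.5 in the second (-0.82, -1.18 to -0.46). Lzic followed a similar pattern (-0.79). Cdkn1c, which encodes the cell cycle inhibitor p57, was higher in the second set in both labels, by 1.05 in the wildtype and 0.41 in the knockout label (-0.64). Igfbp3, a binding protein for insulin-like growth factors, behaved likewise (0.79 and 0.45, interaction -0.34). Rps20, a protein of the small ribosomal subunit (-0.49), S100a6, a calcium-binding protein gene (-0.35), and Snora81, a small nucleolar RNA (-1.22), completed the 12.

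The 44 tested genes of a list of hypoxia-induced genes had close median set differences in the 2 labels, with more positive than negative interactions. The second set was higher in both labels for 42 of them and lower in both for 1, and the median difference was 1.68 in the wildtype and 1.65 in the knockout label. Their median interaction was 0.11 (0.13 without wildtype replicate 2) beside -0.01 for all tested genes, 28 were positive and 16 negative, and 36 had an interval within -1 and 1. The 2 median set differences thus stood in the other order than the median interaction. Without wildtype replicate 2 the wildtype median was 1.61, and 31 interactions were positive and 13 negative. limma and edgeR called none with 12 libraries, and DESeq2 called Selenbp1 (adjusted p = 0.00521). At an unadjusted limma p below 0.05 stood 6 higher and 2 lower with these libraries, beside 4.23% and 4.29% of all tested genes. Without wildtype replicate 2 there were 7 higher (15.9%) and 2 lower (4.55%) at that p, beside 4.27% and 4.23%. Without wildtype replicate 2 limma and edgeR each called 1 gene of the list, Ppp1r3c (adjusted p = 0.0281 and 0.0485). Each of these fits called 3 of the 12553 genes. DESeq2 then called Ppp1r3c, Selenbp1 and Stc2 (adjusted p = 0.000547, 0.00343 and 0.0278), among 26 of 8415 genes. The list's values had been used to draw up the sets, so these set differences support nothing further.

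Egln3, a prolyl hydroxylase gene, had an interaction of 0.11 (-0.20 to 0.41) on differences of 3.14 and 3.25. Slc2a1, the glucose transporter GLUT1 gene, had -0.21 (-0.42 to 0.00) on 2.75 and 2.55, and Ankrd37, a HIF target, 0.31 (-0.30 to 0.92) on 3.31 and 3.62. Pdk1, the kinase gene that restrains pyruvate dehydrogenase, had -0.25 (-0.50 to -0.00), and Car9, a carbonic anhydrase gene, 0.22 (-0.69 to 1.12). For Vegfa, the vascular growth factor gene, wildtype replicate 2 stood at 1166 against 610.1 and 661 in replicates 1 and 3, and the interaction of 0.44 (-0.10 to 0.97) became 0.14 (-0.04 to 0.33) without it. The intervals of Egln3, Slc2a1, Ankrd37, Pdk1 and Vegfa exclude a 2-fold difference in response in either direction, whereas that of Car9 does not. Chosen after their values were seen, Stc2, a secreted glycoprotein gene, had 0.48 (0.64 without wildtype replicate 2), Bnip3, a mitophagy gene, -0.34 (-0.53 to -0.15) and Mt2, a metallothionein gene, 0.25, or 0.66 (0.41 to 0.92) without wildtype replicate 2. limma called none of these 3, and DESeq2 called Stc2 and Mt2 without wildtype replicate 2 (adjusted p = 0.0278 and 0.0038).

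No oxygen-sensing gene was called. All 8 tested HIF subunits, hydroxylases and partners had intervals that include 0, and their median interaction was 0.10 (0.07 without wildtype replicate 2). Hif1a, the inducible alpha subunit gene, was lower in the second set by 0.72 in the wildtype and 0.62 in the knockout label, with an interaction of 0.10 (-0.23 to 0.42) that was -0.06 without wildtype replicate 2.

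No clock gene was called by limma, edgeR or DESeq2, with or without wildtype replicate 2. With all 12 libraries 2 of the 22 tested, Clock and Csnk1d, stood at an unadjusted limma p below 0.05, beside 8.52% of all tested genes. Without wildtype replicate 2, 0 of 5 activators were higher and 2 lower at that p. In the same fit 3 of 17 repressors and outputs were higher and 1 lower, beside 4.27% higher and 4.23% lower among all tested genes. Of the 5 tested activators, Arntl had an interaction of -0.16 (-0.56 to 0.25), Clock, which encodes its partner, -0.27 (-0.53 to -0.02), and Npas2, which can stand in for CLOCK, -0.38 (-1.08 to 0.33), or -0.63 (-1.19 to -0.08) without wildtype replicate 2. Arntl2, a paralog of Arntl, had -0.56 (-1.63 to 0.52), and Rora, a nuclear receptor gene that activates Arntl, 0.07 (-0.23 to 0.38). Rora was higher in the second set by 1.28 in the wildtype and 1.35 in the knockout label.

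Among the repressors, Cry2 stood at 110.1, 150.2 and 128 and at 379.9, 378 and 328 in the wildtype label and at 171, 118 and 138 and at 429, 451 and 436 in the knockout label. Its interaction was 0.15 (-0.29 to 0.58), or 0.03 without wildtype replicate 2. Bhlhe40, which competes at E-boxes, had set differences of 1.93 and 1.86 and an interaction of -0.06 (-0.40 to 0.27), and its paralog Bhlhe41 had 0.40 (-0.32 to 1.12), or 0.66 (0.06 to 1.25) without wildtype replicate 2. Per1 had -0.39 (-1.14 to 0.37), Per2 -0.01 (-1.09 to 1.07), Per3 1.15 (-0.03 to 2.34) and Cry1 -0.62 (-1.37 to 0.12). Without that library the values of Per2, Per3 and Cry1 were 0.11, 0.69 (-0.24 to 1.61) and -0.27 (-0.70 to 0.16). The REV-ERB genes Nr1d1 and Nr1d2, which repress Arntl, had -0.76 (-1.97 to 0.45) and 0.36 (-0.28 to 1.00). Several of these intervals reach beyond 2-fold, at levels as low as 3.38 normalized counts for Nr1d1 in the knockout label.

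Ciart, a repressor of the BMAL1 and CLOCK pair, turned on 1 library. It was at 28.2 and 28.03 in wildtype replicates 1 and 3 but listed at 0 in replicate 2, and at 122, 124 and 123 in the second set. Knockout replicates held 15.7, 22.4 and 22.2 and then 127, 125 and 165. The interaction was -0.98 (-3.84 to 1.89) with all libraries and 0.64 (0.08 to 1.21) without wildtype replicate 2 (limma adjusted p = 0.537). The outputs Dbp (0.66, -0.33 to 1.65), Tef (-0.16, -0.54 to 0.21) and Nfil3 (-0.20, -0.53 to 0.13) had intervals that include 0, also without that library, where Tef had -0.29. Csnk1d, a kinase gene whose product marks PER proteins, had 0.61 (0.16 to 1.06), and its paralog Csnk1e -0.17 (-0.50 to 0.16). Timeless had -0.21 (-1.46 to 1.03), or -0.80 (-1.57 to -0.03) without wildtype replicate 2.

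**Figure D3:**
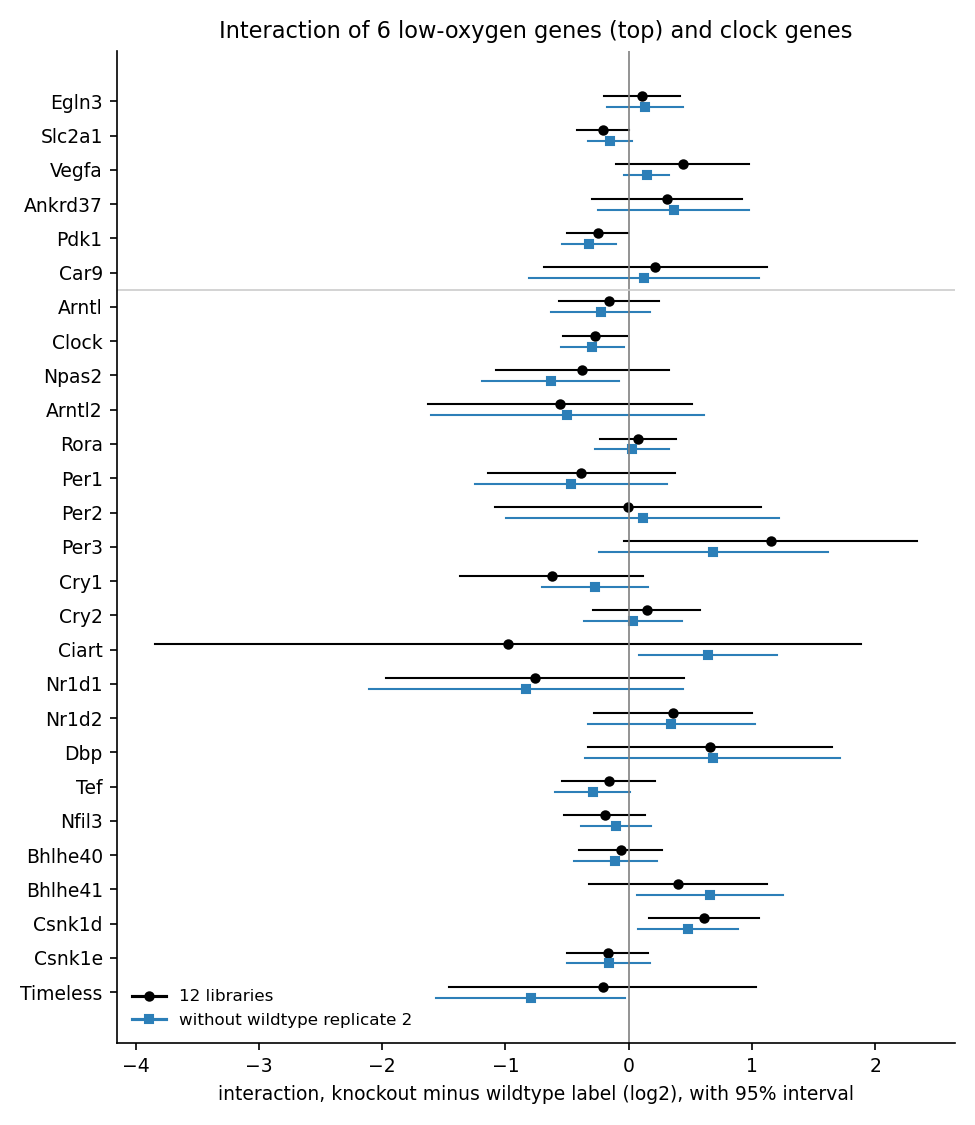
Interaction (x axis, log2, knockout minus wildtype label) with its 95% limma interval for 6 genes that low oxygen induces (above the grey line) and 21 clock genes, with all 12 libraries (black) and without wildtype replicate 2 (blue). The interval of Ciart runs from -3.84 to 1.89 with all libraries, and its value changes sign without that library.

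The glycolysis enzymes and the carriers of glucose and lactate had negative median interactions, without a called gene. Over all tested genes 51.7% of the interactions were negative, and at an unadjusted p below 0.05 stood 4.23% higher and 4.29% lower. Of 19 glycolysis genes, 14 had a negative interaction, and 4 were lower and 0 higher at an unadjusted p below 0.05. Their median was -0.15 (-0.13 without wildtype replicate 2), on set differences of 0.65 and 0.50. Gapdh, the most abundant, stood at 9393, 9299.9 and 9068 and at 14528, 15521 and 15204 in the wildtype label. In the knockout label it stood at 14061, 14001 and 12380.0 and at 19700.0, 18445 and 18927 (-0.21, -0.39 to -0.02). Of the 14 transport and pyruvate dehydrogenase kinase genes 10 were negative, with a median of -0.18 and again 4 lower and 0 higher. Their median set differences, 0.51 in the wildtype and 0.63 in the knockout label, stood in the other order than the median interaction.

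Genes of the cytosolic ribosome and of the respiratory chain had interactions mostly of 1 sign. Of 51 ribosomal protein genes 49 had a negative interaction, and 26 were lower and 0 higher at an unadjusted p below 0.05, beside 51.7% negative and 4.29% lower among all tested genes. The median was -0.26, on set differences of 0.24 in the wildtype and -0.01 in the knockout label. Rps2, the most abundant, had -0.26 (-0.46 to -0.05). Of 53 nuclear genes for respiratory chain subunits 52 were negative, with 9 lower and 1 higher and a median of -0.28, and Atp5b, a subunit of ATP synthase, had -0.32 (-0.70 to 0.05). Without wildtype replicate 2 the medians were -0.16 and -0.14, and Atp5b had -0.13 (-0.30 to 0.04). The mean log2 level of the ribosomal list was 10.28 in that library and 10.61 or more in the other 11.

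The medians of these lists also changed when trends on transcript length and GC content were removed, as they did without wildtype replicate 2. The interaction correlated with transcript length across 12488 genes (Spearman's rho 0.29, and 0.17 without wildtype replicate 2, over genes that share the same libraries). With each library's trend on length and GC content removed, the medians were -0.11 for the ribosomal and -0.11 for the respiratory list. Replication-dependent histone genes, 21 of 23 negative with a median of -0.33, went to -0.16 without wildtype replicate 2 and to -0.04 with the trends removed. The part of length and of that library in the counts was not tested.

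Positive medians were found for the extracellular matrix and demethylase lists, among others. Of 41 extracellular matrix genes 35 were positive, with 8 higher and 3 lower at an unadjusted p below 0.05, beside 4.23% and 4.29% of all tested genes, of which 51.7% were negative. Their median was 0.14, or 0.06 without wildtype replicate 2 and 0.02 with the length and GC trends removed. Col1a1, the most abundant, had 0.33 (0.00 to 0.65). The summed level of the 5 fibroblast markers, of which Col1a1 is one, was 46717 to 51626 and 47772 to 57319.8 in the wildtype label and 40963 to 52208 and 63452 to 67979 in the knockout label, highest in the second set. Col1a1 made up most of this sum, with cell means of 44773 and 50406 in the wildtype and 44244 and 61910 in the knockout label. Over all 12 libraries Dcn ranged from 863 to 1093, Pdgfra from 543 to 745, Thy1 from 1547 to 2314 and Lum from 46.8 to 164. The sum is thus mainly a reading of 1 gene of the matrix list, and the part of fibroblasts in the list was not tested. The 21 JmjC demethylase genes, whose enzymes need oxygen, had a median of 0.18 that went to 0.03 without wildtype replicate 2.

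Of 42 interferon genes 31 were negative with a median of -0.14, and 9 were lower and 0 higher at an unadjusted p below 0.05, beside 51.7% negative and 4.29% lower among all tested genes. Without wildtype replicate 2, 34 were negative with a median of -0.12. B2m, its most abundant gene, had an interaction of -0.15 (-0.40 to 0.10). Of 20 p53 target genes 18 were negative (median -0.17), and Ccng1, the most abundant, had -0.16 (-0.34 to 0.01). Of 24 myogenic regulators and fusion genes 7 were lower and 0 higher at that p (4.29% and 4.23% of all tested genes), with a median of -0.23 (-0.11 without wildtype replicate 2). Of 38 sarcomere genes 4 were higher and 5 lower, with a median of -0.02, and Acta1, skeletal actin, had -0.30 (-0.50 to -0.10). Of 41 cell cycle genes 2 were higher and 3 lower (median -0.02), and of 36 stress and unfolded protein genes 1 was higher and 1 lower (median -0.02). With the exception of mt-Co2, no gene of the 31 lists that are not cell markers was called by limma with all 12 libraries.

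**Figure D4:**
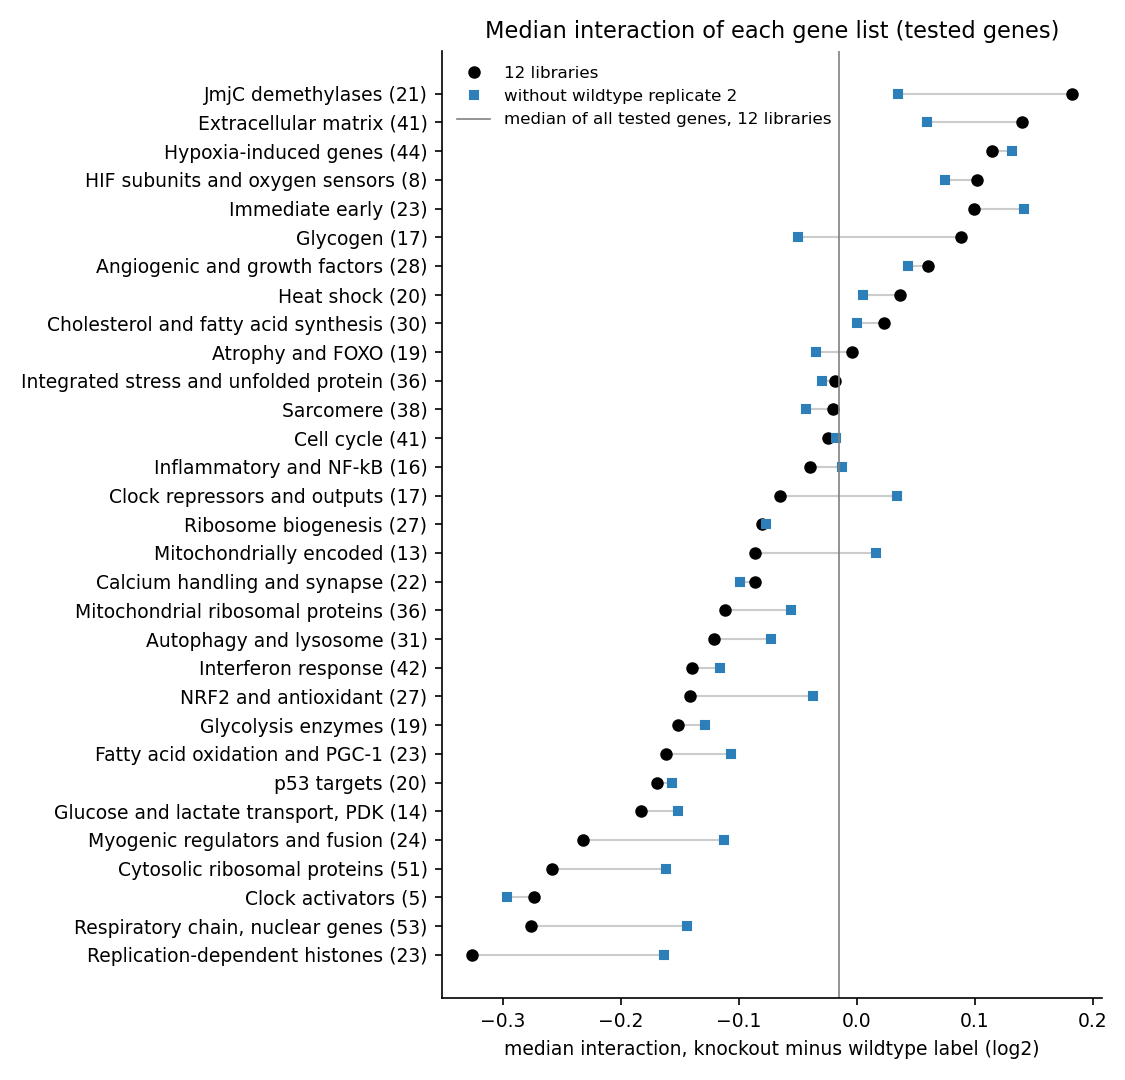
Median interaction (x axis, log2, knockout minus wildtype label) of the tested genes of each list that is not a marker list, number of genes in parentheses, with all 12 libraries (black circles) and without wildtype replicate 2 (blue squares). The vertical line is the median of all 12553 tested genes (-0.01); the respiratory, histone and demethylase medians lie nearer to it without that library.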

How the data were processed

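Total RNA of mouse primary myotubes was sequenced in 12 stranded libraries, per the labels' protocols. The authors deposited a signal, normalized counts of 20201 genes. The submitters' processing notes name Trimmomatic 0.33 for trimming, STAR 2.5.2 and the mm10 build, RSEM 1.3.3 for counts, and DESeq2. No annotation for the counts is named in the sources used here.

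Each column, divided by its lowest nonzero value, came out as whole reads for 100% of values (tolerance 1e-06), with totals of 6376584 to 12463339. The floor of 3 reads lay at 2.12 to 5.85 normalized counts and covers counting error alone. The planned test for normalized values was kept: limma 3.58.1 on log2(value + 1), 1 mean for each of the 4 cells of 3 libraries, trended prior, two-sided, with Benjamini-Hochberg adjusted p below 0.05 over the 12553 genes that averaged 10 or more. Changes of low genes are understated on this scale. Groups come from the genotype labels, and replicate numbers, given in accession order, pair no samples. The libraries of every pair differed by more than sampling noise.

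Sets, gene lists and the rule for named genes were chosen with earlier results of these data known. Named were the called genes, topped up to 12 per direction by smallest p (mean of at least 50, predicted and clone-named genes left out), the measured clock genes (1 is not reported here), 6 genes that low oxygen induces, and the most abundant gene of a list. Others are said to be chosen after their values were seen. GENCODE M21 named 19970 of the identifiers.

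Alternatives were other pseudocounts, filters and scalings, robust and weighted fits, edgeR 4.0.16 and DESeq2 1.42.0 on the recovered reads, a fold threshold, removal of length and GC trends, and each library left out. Wildtype replicate 2 left out of the count models, of the list medians, together with a minimum mean of 50 and together with knockout replicate 4 were alternatives chosen after seeing the data. The steps were tested on simulated data, where limma recovered 4.48% of 1.5-fold, 32.8% of 2-fold and 77.3% of 4-fold interactions. Of its 79 calls there, 3 were false. Most 2-fold interactions were thus missed. R 4.3.3 was used.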

Additional observations from a re-analysis of the deposited data

Results flagged for a closer look

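The interaction of mt-Co2, -7.58 on the log2(value + 1) scale, was called by limma: the gene was listed at 0 in the 3 wildtype libraries of the first set and at 121 normalized counts or more in the other 9. In 5 of 150 pairs of a named gene and a label, 1 of the 6 libraries lay far from the others by Dixon's criterion. In a single group of like libraries chance alone does so in about 1 group in 20. The 6 libraries pool both sets, so that rate does not hold for genes that differ between the sets. A library apart within its set can then be missed. In the wildtype label mt-Co3 reached 1981 in replicate 4, with 0 to 511 in the remaining libraries. Replicate 2 held 74.3 of Per3, where the remaining 5 held 19.3 to 29.9, and 3652 of Atp5b, where they held 5238 to 5506. Replicate 5 held 34.7 of Dbp, where the remaining libraries held 48.01 to 53.3. In the knockout label, Arntl2 stood at 33.8 in replicate 1 against 9.75 to 17.4.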

How the results depend on the processing

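No paired analysis was possible because the replicate numbers follow accession order and pair no samples. The interaction called 1 gene, 0 higher and 1 lower. With each library left out in turn it called 1 to 4 genes (0 to 2 higher, 1 to 2 lower): 3 without wildtype replicate 2 and 4 without wildtype replicate 3, which added Ptpn12 (0.82), Stab1 (3.32) and Snord21 (-4.78), the last 2 named after their values were seen. It called 0 with a pseudocount of 10, with quantile normalization and with edgeR (0 higher and 0 lower in each), 3 with library weights (2 higher), and 29 with DESeq2 (16 higher, 13 lower). Without wildtype replicate 2, edgeR called 3 (3 higher, 0 lower), DESeq2 called 26 (14 higher, 12 lower), and limma with a minimum mean of 50 called 4 (3 higher). 1190002N15Rik was among those called with library weights and in each of these 3 fits, and with wildtype replicate 2 and knockout replicate 4 left out together mt-Co2 alone was called. The 2-label contrast called 2416 genes, 2031 to 2733 with 1 library left out and 3785 with the set as a block. The causes were not tested. With 3 libraries per cell the median standard error was 0.26 on the log2 scale, and 0.23 without wildtype replicate 2.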
